A study of Homo sapiens with 20 samples.

Results

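The 9 genes described here belong to plasminogen activation and blood coagulation, and were followed through all 7 sample groups of the series: PLAU, PLAT, PLAUR, SERPINE2, SERPINB2, F3, F10, TFPI and TFPI2. They were chosen by name, matched by Entrez identifier to official human symbols, and make up 9 of the 27864 genes counted. The cells were SUM159PT, an established human triple-negative breast cancer line. Wild-type cells (wt) stood beside 2 pools in which NNMT, nicotinamide N-methyltransferase, had been targeted with CRISPR guide RNAs. In the KOs pool 1 guide was aimed at the transcription start site. In the KOd pool 2 guides were used to remove exon 1. Each pool was a mixture of several clones, and its libraries are repeats of that 1 mixture, not of independent editing events. The make-up of a pool and its edit cannot be told apart. Adherent cells (2D) grew in Ham's F12 medium that contained serum (5%), insulin and hydrocortisone. Tumorspheres (3D) were second-round spheres after 2 rounds of 6 days on ultra-low attachment plates, in serum-free DMEM/F12 with B27, 20 ng/mL EGF and 20 ng/mL basic FGF. A further wt group, called tumorsphere medium here, stayed adherent but was moved to that serum-free medium at partial confluency. Each cell type was sequenced as 3 libraries (A, B, C) per culture format, and tumorsphere medium as 2 (A, B).

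Plasmin, the protease that degrades fibrin and matrix proteins, is released from plasminogen by urokinase (PLAU) and tissue-type plasminogen activator (PLAT). The urokinase receptor (PLAUR) holds urokinase at the cell surface, and serpins such as protease nexin-1 (SERPINE2) and PAI-2 (SERPINB2) inactivate the activators. Coagulation starts when tissue factor (F3) on a cell meets factor VII and activates factor X (F10). Tissue factor pathway inhibitor (TFPI) blocks that step, and its relative TFPI2 inhibits plasmin and other serine proteases of the matrix. Tumour cells often carry several of these genes, and urokinase and its receptor are best known in breast cancer for their part in invasion.

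Libraries held 26396964 to 43744817 counted reads, and the 6 labelled KOs had the highest totals and the lowest ribosomal RNA share (0.926% to 2.70%, against 2.82% to 8.46% in the others). These traits and the pool cannot be told apart. NNMT was at 117 ± 13.3 CPM (read counts scaled to library size with TMM factors, mean ± SD) in wt 2D, 4.55 ± 0.139 in KOd 2D and 106 ± 27.6 in the KOs 2D libraries. In 3D it was at 98.4 ± 27.5 CPM in wt, 5.15 ± 0.497 in KOd and 84.8 ± 1.75 in KOs. NNMT mRNA therefore sets KOd apart from wt but not the libraries labelled KOs, and every result on that pool below is one of the libraries carrying the label. Labelled KOs 2D A, wt 3D C and KOd 3D C each stood apart from their replicates by correlation of log2 CPM. Their r with B or A was 0.9807, 0.9822 and 0.9885, where the other 2 libraries of the group had 0.9917, 0.9951 and 0.995. By chi-square per degree of freedom, where 1 would be counting noise, wt 2D A and C (45.6) differed as much as KOd 3D A and C (45.9). Wild-type 2D C was not among the 3 libraries left out together. Whether replicates came from separate cultures is not stated in the labels, and the p-values cover the scatter of these libraries, which may be technical. ESR1 and PGR were at most 0.265 CPM on average in any group, and VIM was between 2650 and 5510 CPM, while ERBB2 was at 61.9 to 90.7 CPM. Of the platelet markers, GP9, PF4 and PPBP were at 0 in every group.

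The RefSeq promoter table (GRCh38.p14) held 8 of the 9 genes, in 10 start sites. The 250 bases upstream of the start are printed for 5 genes whose values carry the results: PLAU and SERPINE2, which moved with culture format, TFPI2, which moved most with the medium, and F3 and F10 of the coagulation pathway. Capitals mark letters of 4 searched motifs, found on either strand. The AP-1 motif, bound by Fos and Jun proteins, was searched as TGANTCA. For NF-kB, a factor of inflammatory signalling, the search used GGANTTNCC. Sp1, a factor of many GC-rich promoters, was represented by GGGCGG. The core promoter element known as the TATA box was searched as TATAAA.
PLAU, second start (chr10:73910882-73911131, + strand): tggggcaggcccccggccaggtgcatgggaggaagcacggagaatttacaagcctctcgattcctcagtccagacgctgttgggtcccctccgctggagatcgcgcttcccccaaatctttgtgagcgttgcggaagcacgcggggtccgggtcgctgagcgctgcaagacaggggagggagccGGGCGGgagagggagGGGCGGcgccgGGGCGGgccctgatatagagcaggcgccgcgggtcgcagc
SERPINE2, second start (chr2:224038641-224038890, - strand): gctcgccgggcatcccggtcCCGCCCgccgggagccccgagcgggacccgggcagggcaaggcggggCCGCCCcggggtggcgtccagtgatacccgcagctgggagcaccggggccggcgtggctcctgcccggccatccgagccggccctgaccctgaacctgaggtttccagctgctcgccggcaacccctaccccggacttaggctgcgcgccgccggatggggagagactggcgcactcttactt
TFPI2 (chr7:93890754-93891003, - strand): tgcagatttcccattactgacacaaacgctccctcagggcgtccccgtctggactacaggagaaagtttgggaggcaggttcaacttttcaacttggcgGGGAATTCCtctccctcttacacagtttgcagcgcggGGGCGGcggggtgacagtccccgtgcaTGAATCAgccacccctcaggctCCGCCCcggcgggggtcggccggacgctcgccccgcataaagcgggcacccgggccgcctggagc
F3 (chr1:94541760-94542009, - strand): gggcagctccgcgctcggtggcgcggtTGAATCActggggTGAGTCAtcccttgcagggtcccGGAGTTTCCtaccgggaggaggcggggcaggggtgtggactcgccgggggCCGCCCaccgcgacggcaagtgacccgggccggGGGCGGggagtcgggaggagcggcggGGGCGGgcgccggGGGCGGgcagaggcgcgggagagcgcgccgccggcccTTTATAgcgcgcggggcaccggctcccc
F10 (chr13:113122549-113122798, + strand): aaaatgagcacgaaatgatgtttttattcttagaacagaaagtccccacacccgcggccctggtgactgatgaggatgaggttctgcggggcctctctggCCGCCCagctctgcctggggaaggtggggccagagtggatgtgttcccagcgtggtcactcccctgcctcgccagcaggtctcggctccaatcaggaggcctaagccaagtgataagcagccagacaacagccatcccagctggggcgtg

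The F3 window held 2 AP-1, 1 NF-kB, 4 Sp1 matches and 1 TATA match. The TFPI2 window held 1 AP-1, 1 NF-kB and 2 Sp1 matches. PLAU and SERPINE2, printed at the second start of each, carried Sp1 letters and none of the other motifs, 3 and 2 times, and the first SERPINE2 start (chr2:224031479-224031728) carried them 1 time. F10 carried Sp1 letters 1 time, and no matches overlapped one another in these windows. PLAUR (chr19:43670170-43670419) had 1 AP-1 match and SERPINB2 (chr18:63887455-63887704) 1 AP-1 and 1 TATA match, while the TFPI window (chr2:187554436-187554685) and the first PLAU start (chr10:73910360-73910609) had none of the 4. Over all 35116 upstream windows of the table, 6.57% held AP-1 letters, 3.67% NF-kB, 42.6% Sp1 and 10.7% TATA. These matches describe letters in a window, and binding was not measured.

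**Figure D1:**
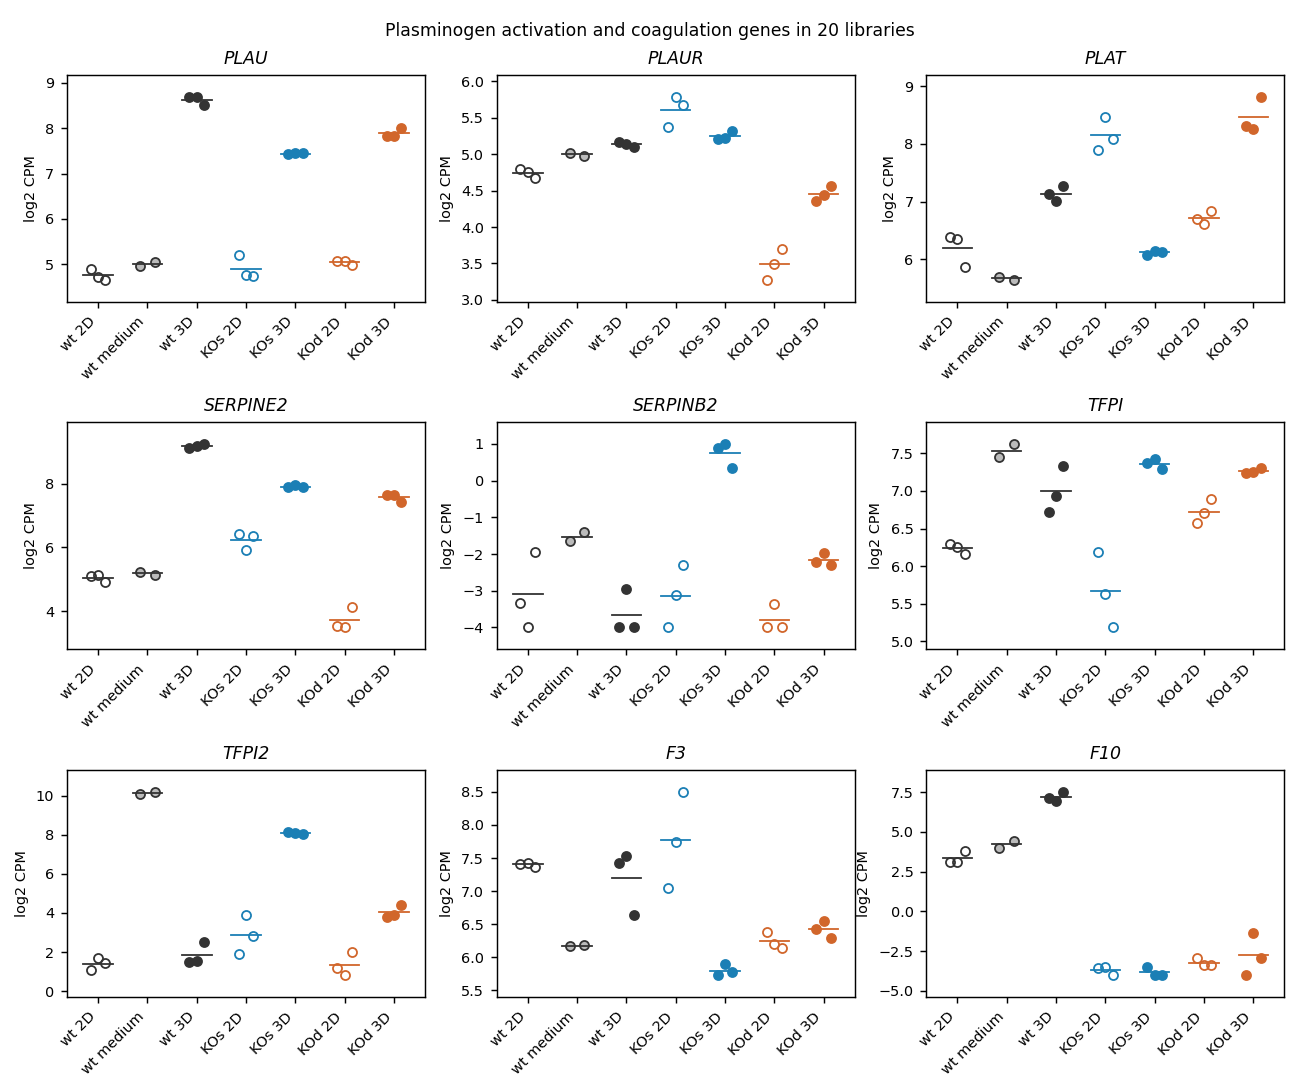
Each point is 1 library and each line a group mean, as log2 CPM with a prior count of 2, for the 9 genes (panels) in the 7 groups (open circles 2D, filled 3D, grey tumorsphere medium). PLAU and SERPINE2 were highest in the 3D groups, TFPI2 in tumorsphere medium and labelled KOs 3D, and F10 in the wt libraries.

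PLAU (Entrez 5328, chromosome 10, 73908832 to 73917494) was the activator that followed culture format. Its 9 libraries of 2D culture and the 2 of tumorsphere medium lay between 25.2 and 36.9 CPM. In 3D it read 409, 415 and 362 CPM in wt, 172, 174 and 175 in labelled KOs, and 226, 228 and 255 in KOd. In bulk RNA, fewer cells of a kind and less RNA per cell cannot be told apart, here and for the other genes. The 3D groups overlapped neither the adherent libraries nor each other, with wt highest and labelled KOs lowest. Against 2D, PLAU rose by a log2 fold change of 3.87 ± 0.12 (± SE) in wt (adjusted p = 8.8e-14, edgeR quasi-likelihood test with Benjamini-Hochberg adjustment over 16323 genes). The rise was 2.52 ± 0.11 in labelled KOs (adjusted p = 7.8e-12) and 2.84 ± 0.11 in KOd (adjusted p = 1.3e-12). These rises were smaller than in wt by 1.35 and 1.03 log2 units, with log2 differences of -1.35 ± 0.15 (adjusted p = 4.3e-06) and -1.03 ± 0.15 (adjusted p = 7.5e-05). The medium on its own left PLAU at 31.3 and 33.1 CPM, a log2 fold change of 0.25 with a 95% interval of -0.01 to 0.51 (adjusted p = 0.13). That change passed in a fit of the compared groups alone (adjusted p = 0.039) and without the 3 libraries that stood apart (adjusted p = 0.0075). Among the adherent groups KOd rose slightly over wt (log2 0.29 ± 0.11, adjusted p = 0.04), and leaving out any 1 of 5 of the 6 libraries ended this call (wt B or C, KOd A, B or C). KOd 2D against labelled KOs 2D stood at 0.12 (adjusted p = 0.34), and at 0.29 with a passing test without labelled KOs A (adjusted p = 0.006). C10orf55 overlaps PLAU on the opposite strand, and the strand setting of the counting is not stated. It had 10 to 130 reads per library.

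PLAT (Entrez 5327, chromosome 8, 42174718 to 42207565) moved with culture format in opposite directions in the pools. It read 237, 354 and 271 CPM in labelled KOs 2D but 67.7, 70.4 and 70.1 in labelled KOs 3D. In KOd it read 104, 98.2 and 114 CPM in 2D and 316, 305 and 452 in 3D. Wild-type cells read 83.2, 81.5 and 58.6 CPM in 2D, below both pools, and 140, 128 and 155 in 3D, between the pools. So PLAT rose in 3D in wt (log2 0.92 ± 0.16, adjusted p = 8.2e-05) and in KOd (1.77 ± 0.16, adjusted p = 4.7e-08) and fell in labelled KOs (-2.05 ± 0.17, adjusted p = 1.5e-08). The difference of the labelled KOs response from that of wt was -2.97 ± 0.23 (adjusted p = 9.2e-08), and that of KOd was 0.84 ± 0.23 (adjusted p = 0.0094). In 2D, PLAT was higher than in wt in labelled KOs (1.95 ± 0.17, adjusted p = 4.3e-08). It was also higher in KOd (0.50 ± 0.16, adjusted p = 0.017), a call that ended without wt C (log2 0.35) or without KOd C, with an adjusted p of up to 0.1. In tumorsphere medium it read 51.6 and 49.9 CPM and fell against wt 2D (-0.55 ± 0.18, adjusted p = 0.028), a call that ended without wt A, wt B, medium A or medium B (adjusted p up to 0.15).

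Per kilobase of gene length, which allows levels of different genes to be set side by side, PLAT exceeded PLAU in adherent cells and PLAU exceeded PLAT in wt and labelled KOs tumorspheres. The ratio of PLAT to PLAU (CPM per kilobase) was 2.29 ± 0.33 (SD, n = 3) in wt 2D, 1.32 ± 0.0843 (n = 2) in tumorsphere medium and 0.3 ± 0.0504 in wt 3D. It went from 8.26 ± 2.77 to 0.334 ± 0.00461 in labelled KOs. In KOd it went from 2.67 ± 0.308 in 2D to 1.26 ± 0.194 in 3D, so KOd tumorspheres were the 3D group in which PLAT stayed above PLAU in all 3 libraries (1.12 to 1.48).

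**Figure D2:**
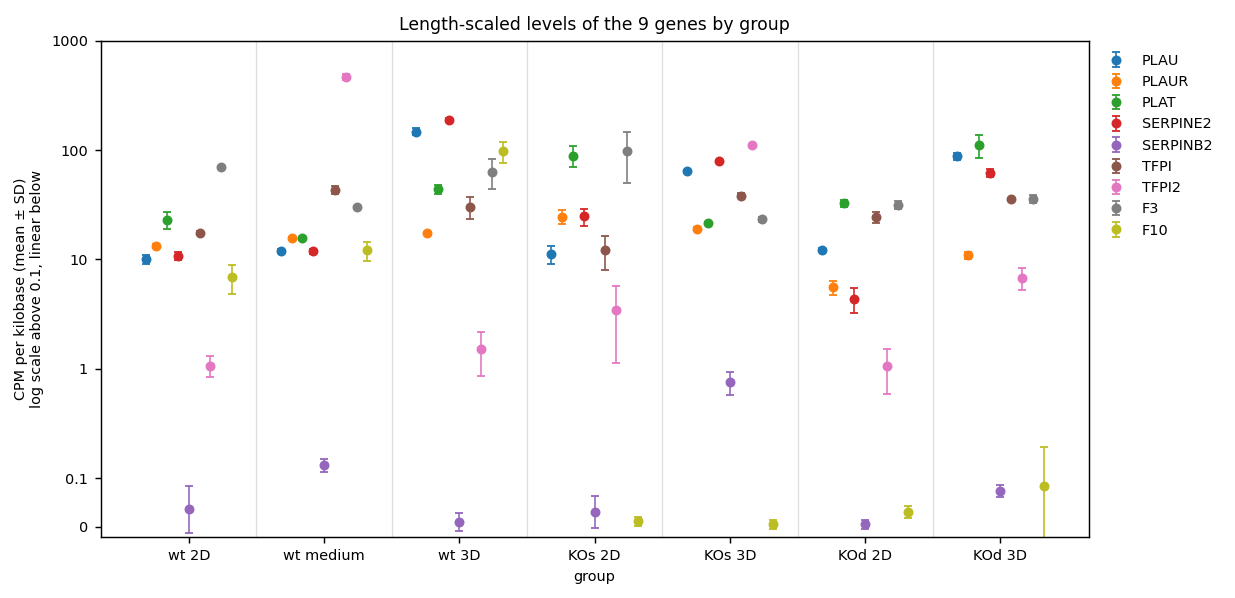
Points are group means and bars the SD of CPM per kilobase of deposited gene length for the 9 genes (colours) in the 7 groups; the axis is logarithmic above 0.1 and linear below. TFPI2 in tumorsphere medium (465) was the highest value, SERPINE2 (190) and PLAU (147) led in wt 3D, and F10 fell from 97.4 in wt 3D to below 0.1 in both pools as labelled.

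PLAUR (Entrez 5329, chromosome 19, 43646095 to 43670169), the receptor, had both its highest and its lowest group mean in adherent pools, labelled KOs 2D and KOd 2D. It read 27.8, 26.9 and 25.5 CPM in wt 2D, 41.2, 55.3 and 51.1 in labelled KOs 2D, and 9.61, 11.1 and 12.9 in KOd 2D. In 3D it read 35.8, 35.2 and 34.4 CPM in wt, 36.8, 37.4 and 39.8 in labelled KOs and 20.4, 21.6 and 23.6 in KOd. No 2 neighbouring groups overlapped in the order of its 7 group means, and KOd 3D and KOd 2D held the lowest places. PLAUR rose in 3D in wt (log2 0.39 ± 0.11, adjusted p = 0.0043) and in KOd (0.96 ± 0.11, adjusted p = 8.3e-07) and fell in labelled KOs (-0.37 ± 0.11, adjusted p = 0.0055). Scaling by library totals alone ended this last call (-0.15, adjusted p = 0.23). Relative to the wt response, that of labelled KOs was lower by 0.77 log2 units (log2 -0.77 ± 0.15, adjusted p = 8.6e-04) and that of KOd higher (0.57 ± 0.16, adjusted p = 0.011). In 2D the receptor was higher than wt in labelled KOs (0.88 ± 0.11, adjusted p = 3.3e-06) and lower in KOd (-1.25 ± 0.11, adjusted p = 1.2e-07). In 3D it was lower in KOd (-0.69 ± 0.11, adjusted p = 9.5e-05), and labelled KOs did not pass (0.11, 95% interval -0.12 to 0.35, adjusted p = 0.38). With library totals that last value was 0.28 and passed (adjusted p = 0.038). Tumorsphere medium gave 32.4 and 31.3 CPM, a log2 fold change of 0.25 over wt 2D that did not pass (adjusted p = 0.13) but did in the compared groups alone (adjusted p = 0.019) and without the 3 libraries that stood apart (adjusted p = 0.031).

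SERPINE2 (Entrez 5270, chromosome 2, 223975045 to 224039286) had the widest range of group means among PLAU, PLAT, PLAUR and itself. It read 33.9, 35.0 and 30.3 CPM in wt 2D and 554, 583 and 605 in wt 3D. Labelled KOs went from 84.9, 60.2 and 82.1 CPM to 237, 246 and 238, and KOd from 11.6, 11.1 and 17.3 to 198, 198 and 172. All 7 groups were separate from their neighbours in the order of means, with KOd 2D lowest and wt 3D highest, 43.7 times apart. The rise in 3D was 4.13 ± 0.16 in wt (adjusted p = 7.7e-13), 3.83 ± 0.16 in KOd (adjusted p = 1.6e-12) and 1.66 ± 0.14 in labelled KOs (adjusted p = 2.7e-08). The labelled KOs response was smaller than that of wt (log2 -2.47 ± 0.20, adjusted p = 1.3e-07). For KOd the difference was -0.30 with a 95% interval of -0.74 to 0.13 (adjusted p = 0.28). Within 2D, SERPINE2 was higher than wt in labelled KOs (1.20 ± 0.14, adjusted p = 2.0e-06) and lower in KOd (-1.31 ± 0.15, adjusted p = 1.4e-06). Within 3D it was lower in labelled KOs (-1.27 ± 0.14, adjusted p = 5.1e-07) and in KOd (-1.61 ± 0.14, adjusted p = 9.3e-08). The medium gave 37.6 and 35.1 CPM, a log2 fold change of 0.14 with a 95% interval of -0.21 to 0.48 (adjusted p = 0.56).

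SERPINB2 (Entrez 5055, chromosome 18, 63887705 to 63903888) was counted in quantity in 1 group alone. Labelled KOs 3D had 73, 77 and 52 reads (1.64 ± 0.384 CPM). The 3 libraries each of wt 2D, wt 3D, labelled KOs 2D, KOd 2D and KOd 3D had 6, 2, 7, 1 and 15 reads in all, and tumorsphere medium had 7 and 8. It passed the filter on low counts only through labelled KOs 3D, and its comparisons are given here as count ratios with counting intervals. Its level in labelled KOs 3D was 72.9 times that in wt 3D (95% counting interval 19.9 to 606) and 26.6 times that in labelled KOs 2D (12.7 to 67.1). Both comparisons also passed in the edgeR fit, but the filter admitted the gene through labelled KOs 3D alone, so those calls are no independent support. The first ratio was 47.6 without wt 3D A and at least 32.4, against a floor of 3 counts over the group, without wt 3D B, while the second was 16.9 without labelled KOs 2D A and 64.5 without labelled KOs 2D C. KOd 3D stood 14.1 times above KOd 2D (2.16 to 592). The edgeR fit passed this comparison (adjusted p = 0.02), and this call ended without KOd 2D A or C (adjusted p up to 0.065, ratio down to 9.34). Without KOd 2D B, which held its 1 read, the ratio was at least 3.14. The intervals cover counting error only. Monocytes and macrophages are known to make PAI-2, and the 7 leukocyte markers, of which 2 were at 0 there, summed to 189 to 201 CPM in labelled KOs 3D and 18.2 to 110 CPM elsewhere. CD68 made up most of that, at 187 CPM in labelled KOs 3D, and CD14, a monocyte marker, was at 4.94 CPM there and 0.113 to 0.999 CPM on average elsewhere. LYZ was highest there too, at 0.13 CPM, and PTPRC was at 0.257 CPM. CD68, CD14 and LYZ were named after their values were seen, and the list as a whole did not move in 1 direction. Of 4 tested leukocyte markers, 2 rose and 1 fell in labelled KOs 3D against wt 3D (27.8% and 28.5% of all genes). Against labelled KOs 2D, 3 rose and 1 fell (32.9% and 32.1%). The part of these transcripts in the SERPINB2 result was not tested.

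F3 (Entrez 2152, chromosome 1, 94529173 to 94541759) was the highest of the 9 genes per kilobase in adherent wt cells (70.7 CPM per kilobase), at 170, 172 and 165 CPM. Tumorsphere medium read 71.6 and 72.7 CPM, lower by 1.23 log2 units (log2 -1.23 ± 0.29, adjusted p = 0.0036). Wild-type tumorspheres, in the same medium, read 173, 184 and 99.7 CPM, above the adherent cells in that medium (1.08 ± 0.29, adjusted p = 0.0036). The low value was wt 3D C. Against wt 2D, wt 3D had a log2 fold change of -0.15 with a 95% interval of -0.69 to 0.38 (adjusted p = 0.60), and 0.07 without wt 3D C. In labelled KOs, F3 fell from 133, 214 and 363 CPM in 2D to 53.1, 59.4 and 54.5 in 3D (-2.09 ± 0.26, adjusted p = 2.0e-06). The difference of that response from wt was -1.93 ± 0.35 (adjusted p = 4.4e-04). KOd read 82.9, 73.6 and 70.7 CPM in 2D and 85.9, 94.0 and 78.5 in 3D, with no passing change between them (log2 0.19, 95% interval -0.35 to 0.73, adjusted p = 0.53). KOd was therefore low in both formats, below wt by 1.16 log2 units in 2D (log2 -1.16 ± 0.25, adjusted p = 0.0011). In 3D it was -0.82 ± 0.25 below wt (adjusted p = 0.017), a call that ended without wt A, wt B or KOd C (adjusted p up to 0.077). Labelled KOs 2D spread from 133 to 363 CPM. It passed against wt 2D only without its replicate A (log2 0.77, adjusted p = 0.0028) and not with it (0.48, adjusted p = 0.11).

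F10 (Entrez 2159, chromosome 13, 113122799 to 113149529), a clotting factor made mainly by the liver, was present in wt cells and nearly absent from both pools. It read 8.71, 8.72 and 14.1 CPM in wt 2D, 15.9 and 21.3 in tumorsphere medium, and 139, 125 and 185 in wt 3D. In wt it rose in 3D by 3.83 ± 0.26 on the log2 scale (adjusted p = 9.2e-10) and was 3.01 ± 0.29 higher in 3D than in tumorsphere medium (adjusted p = 1.0e-07). The rise in the medium alone was 0.82 ± 0.26 (adjusted p = 0.023) and did not pass without wt A, wt B or medium B (adjusted p up to 0.25). The labelled KOs libraries held 1, 1 and 0 reads in 2D and 1, 0 and 0 in 3D. KOd held 2, 1 and 1 reads in 2D and 0, 10 and 2 in 3D, so 1 library carried most of its 12 reads in 3D. The 3 wt libraries held 832 reads in 2D and 13334 in 3D, and no pool library overlapped a wt library. F10 passed the filter on low counts only through the wt groups. The wt 2D level was 597 times that of labelled KOs 2D (95% counting interval 165 to 4940) and 227 times that of KOd 2D (88.2 to 834). In 3D the wt level was 18500 times that of labelled KOs (3320 to 730000) and 1150 times that of KOd (658 to 2230). Each of these comparisons also passed in the edgeR fit, but the filter admitted F10 through wt alone, so those calls are no independent support. Without KOd 3D B the KOd ratio was 4570 (1260 to 37700), and without KOd 3D A it was 744 (426 to 1440). The labelled KOs ratio was 12000 without labelled KOs 3D C and at least 4130, with a floor of 3 counts, without labelled KOs 3D A, which held the 1 read. KOd 3D against labelled KOs 3D, 12 reads against 1, passed in the fit (adjusted p = 0.039) but not in the compared groups alone (adjusted p = 0.064) nor without KOd 3D B, labelled KOs 3D B or labelled KOs 3D C (adjusted p up to 0.46).

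Most genes beside F10 on chromosome 13 were lower in the pools as well, a comparison chosen after the F10 values were seen. Of the 18 other tested genes whose starts lay within 1 Mb of that of F10, 16 fell and 2 did not pass in labelled KOs 2D, and 12 fell and 6 did not pass in KOd 2D. The corresponding numbers in 3D were 15 fell and 2 rose in labelled KOs, and 14 fell and 3 rose in KOd. In 3D all that fell started downstream of F10 and all that rose started upstream. Those that rose were ATP11A (log2 1.37) and MCF2L (2.4, at most 24 reads in a library) in labelled KOs. In KOd they were ATP11A (1.05), MCF2L (2.18) and TUBGCP3 (0.49). As shares, 88.9% and 66.7% of the 18 fell in labelled KOs and KOd in 2D, where 67.8% and 26.5% of the other 264 tested genes of the chromosome did. In 3D 83.3% and 77.8% of the 18 fell, and 59.8% and 36.0% of the other 264. Median log2 fold changes against wt over these genes were -1.39 and -1.0 in 2D, and -1.55 and -0.98 in 3D. LAMP1, a lysosomal membrane protein gene 174.4 kb downstream of the F10 start, had log2 fold changes of -1.28 ± 0.07 in labelled KOs 2D and -0.97 ± 0.07 in KOd 2D (adjusted p = 3.5e-10 and 1.3e-08). CUL4A, a ubiquitin ligase scaffold gene, stood at -1.42 ± 0.10 and -1.16 ± 0.10 (adjusted p = 3.4e-09 and 4.7e-08). Over the other 264 genes the medians were -0.86 in labelled KOs 2D and -0.03 in KOd 2D, and -0.78 and 0.11 in 3D. These 264 were not uniform: 158 fell and 24 rose in labelled KOs 3D, and 95 fell and 94 rose in KOd 3D. Falls of similar size lay far upstream, as in HMGB1 (at -82.666 Mb, log2 -1.65 and -1.33) and SUCLA2 (at -65.18 Mb, -2.51 and -1.55). CDC16, UPF3A and CHAMP1, which start just past 1 Mb downstream, are among the 264 and fell in both pools in 3D. GRTP1, whose start lies 201.4 kb from that of F10, fell in all 4 comparisons and had at most 12 reads in any library. F7, a clotting factor gene on the same chromosome, had 0 reads in every library, wt included. The part of chromosome-wide levels in the F10 result was not tested, and DNA was not analysed here. Beside F10, the hepatocyte markers ALB and TTR were at most 0.062 CPM on average in every group, and the list's sum, 3.66 to 280 CPM, was nearly all SERPINA1.

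**Figure D3:**
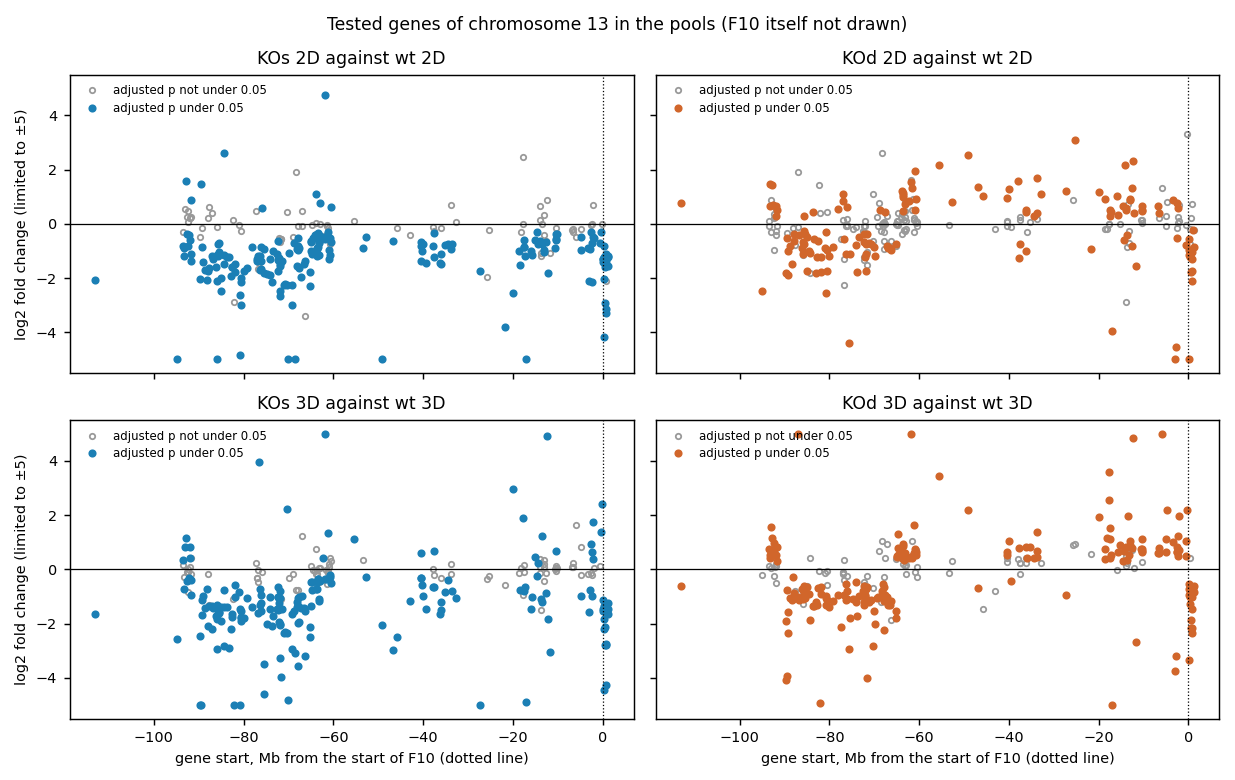
Each point is a tested gene of chromosome 13 other than F10, placed by the distance of its start from that of F10 (Mb) against its log2 fold change (values beyond 5 drawn at the limit) in each pool as labelled against wt, in 2D and 3D. Near the F10 start most genes fell in all 4 comparisons (16, 12, 15 and 14 of 18). Genes far upstream fell as well, among them HMGB1 and SUCLA2 in all 4 comparisons, while others there rose. In 3D, the genes within 1 Mb that fell lay downstream of F10 and those that rose upstream.

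TFPI (Entrez 7035, chromosome 2, 187464230 to 187554435) had the narrowest range of the 9 genes, 3.53 times from lowest to highest group mean. It read 78.1, 76.4 and 71.7 CPM in wt 2D, 174 and 197 in tumorsphere medium, and 105, 123 and 162 in wt 3D. It rose in the medium by 1.30 ± 0.20 (adjusted p = 8.5e-05) and in 3D culture by 0.78 ± 0.18 over wt 2D (adjusted p = 0.0011). In wt, 3D was lower than tumorsphere medium by 0.52 log2 units (log2 -0.52 ± 0.20, adjusted p = 0.031), a call that ended without wt 3D A, wt 3D B or either medium library (adjusted p up to 0.19). Labelled KOs went from 72.5, 49.4 and 36.3 CPM to 166, 172 and 156 (1.64 ± 0.18, adjusted p = 6.8e-07), a rise larger than in wt (0.86 ± 0.26, adjusted p = 0.014). KOd went from 94.7, 104 and 119 CPM to 150, 153 and 158 (0.54 ± 0.18, adjusted p = 0.014), and that call ended without KOd 2D A (adjusted p = 0.06). In 2D, TFPI fell against wt in labelled KOs (-0.52 ± 0.18, adjusted p = 0.024) and rose in KOd (0.49 ± 0.18, adjusted p = 0.035). The fall ended in the compared groups alone (adjusted p = 0.11) and without wt A, wt B, labelled KOs B or labelled KOs C (adjusted p up to 0.12). The rise ended without any 1 library except KOd A (adjusted p up to 0.13). In 3D the pools did not pass against wt (0.34 and 0.24, adjusted p = 0.11 and 0.32), but did without the 3 libraries that stood apart (0.53 and 0.41, adjusted p = 2.4e-04 and 0.0078). Labelled KOs passed without wt 3D C alone (0.52, adjusted p = 0.024).

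TFPI2 (Entrez 7980, chromosome 7, 93885396 to 93890753) was highest in adherent cells given the medium and stayed low in wt tumorspheres. It read 2.05, 3.17 and 2.63 CPM in wt 2D, 1090 and 1190 in tumorsphere medium, and 2.75, 2.82 and 5.58 in wt 3D. The log2 fold change was 8.76 ± 0.48 for the medium (adjusted p = 1.0e-09), and wt 3D lay below tumorsphere medium by 8.26 log2 units (log2 -8.26 ± 0.47, adjusted p = 1.9e-10). Both groups were fed the same serum-free medium, and they differed in attachment, time and rounds of plating. Wild-type 3D against 2D gave 0.50 with a 95% interval of -0.44 to 1.45 (adjusted p = 0.33). In labelled KOs it went from 3.65, 14.7 and 6.90 CPM to 282, 270 and 266 (5.02 ± 0.39, adjusted p = 1.0e-08). In KOd it went from 2.20, 1.71 and 3.90 CPM to 14.0, 15.0 and 21.1 (2.68 ± 0.40, adjusted p = 1.5e-05). Both responses exceeded that of wt, by 4.52 ± 0.57 (adjusted p = 1.6e-05) and 2.18 ± 0.60 (adjusted p = 0.011). In 3D, TFPI2 was thus higher than wt in labelled KOs (6.20 ± 0.43, adjusted p = 1.6e-09) and KOd (2.17 ± 0.39, adjusted p = 2.8e-04), and in 2D it was higher in labelled KOs (1.68 ± 0.41, adjusted p = 0.0022). Without labelled KOs 2D B, the library at 14.7 CPM, that 2D value was 1.00 (adjusted p = 0.023), the rise in 3D 5.70 and the difference from the wt response 5.20. Per kilobase, TFPI2 was 10.8 ± 0.249 times TFPI in tumorsphere medium (n = 2), 2.91 ± 0.142 times in labelled KOs 3D (n = 3), and at most 0.316 times, as a group mean, in the other groups. GNGT1, which overlaps TFPI2 on the opposite strand, had at most 13 reads in a library.

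The 9 genes were then counted comparison by comparison. SERPINB2 passed the filter only through labelled KOs 3D and F10 only through the wt groups. Their calls for those groups against the others are counted but are no independent support. In wt 3D against 2D, 6 rose and 0 fell, where 33.3% of all tested genes rose and 30.4% fell, and the median log2 fold change was 0.78 against 0.04 over all genes. In labelled KOs 5 rose and 3 fell (32.9% and 32.1% of all genes, medians 1.64 and 0.02). In KOd 7 rose and 0 fell (35.2% and 31.2%, medians 1.77 and 0.07). These counts of 0 by edgeR were 0 also at an unadjusted p under 0.05 and by DESeq2. PLAU, SERPINE2 and TFPI rose in all 3 of these comparisons, though the TFPI call in KOd ended without KOd 2D A. The share of all genes that rose in all 3 was not counted. The KOs response differed from that of wt for 8 genes as labelled, 3 higher and 5 lower (17.9% and 19% of all genes). The KOd response differed for 5, with 4 higher and 1 lower (14.4% and 14.7%), namely PLAUR, PLAT, SERPINB2 and TFPI2 against PLAU. The SERPINB2 call ended with the replicate letter as a block (adjusted p = 0.057), with no filter (adjusted p = 0.051) and without any of 8 of the 12 libraries (adjusted p up to 0.38). Its KOs counterpart ended without wt 2D C (adjusted p = 0.2). Both interaction comparisons share the wt libraries.

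**Figure D4:**
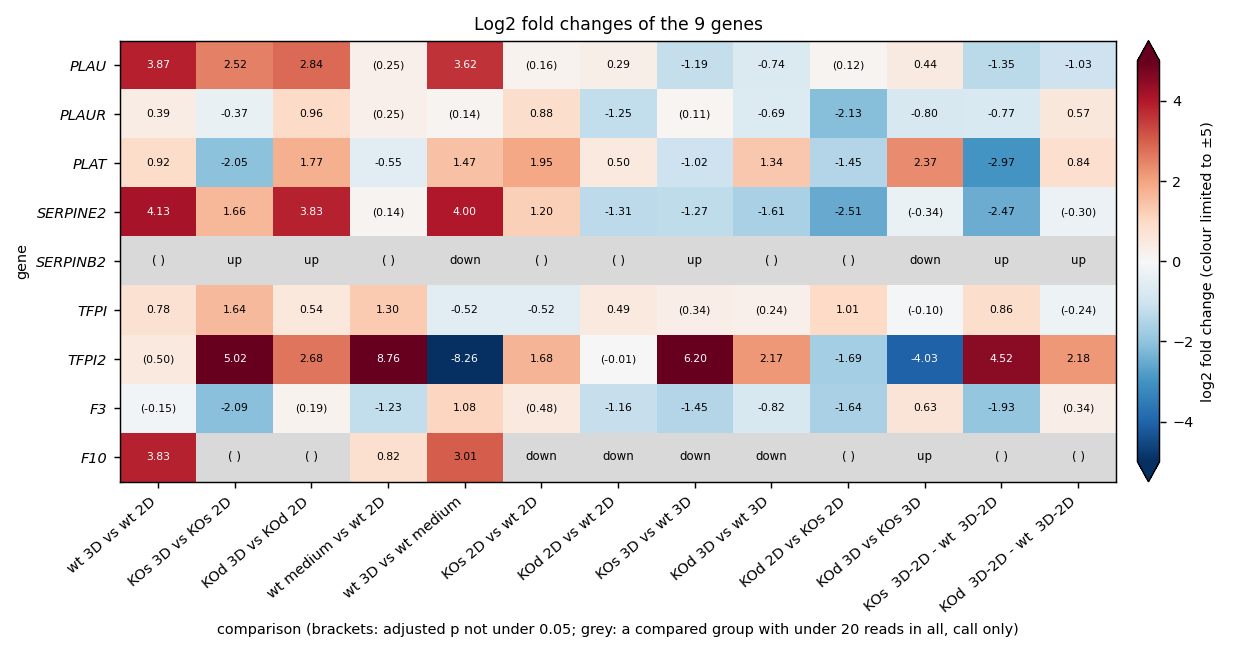
Log2 fold changes of the 9 genes (rows) in 13 comparisons (columns), with values in brackets where the adjusted p was not under 0.05; in grey cells a compared group had under 20 reads in all, and the call alone is given. PLAU and SERPINE2 were positive in every 3D against 2D comparison, and F10 was lower in both pools, as labelled, than in wt.

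For the medium in adherent wt cells 3 of the 9 genes rose and 2 fell, where 15.6% and 16.4% of all genes did. TFPI, TFPI2 and F10 rose, and PLAT and F3 fell. In wt 3D against tumorsphere medium 5 rose and 3 fell (32.8% and 30% of all genes): PLAU, PLAT, SERPINE2, F3 and F10 against SERPINB2, TFPI and TFPI2. The medium comparison and the culture comparison share wt 2D. PLAU and SERPINE2 stood at log2 0.25 and 0.14 in the first and at 3.62 ± 0.14 and 4.00 ± 0.19 (adjusted p = 1.8e-12 and 1.4e-11) in the second.

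In labelled KOs 2D against wt 2D 4 genes rose and 2 fell (27.7% and 25.5% of all genes), and in KOd 2D 3 rose and 4 fell (22.1% and 22.5%). Their medians were 0.48 and -1.16, with 0.06 and 0.01 over all genes. In 3D, 2 rose and 5 fell in labelled KOs (27.8% and 28.5%), and 2 rose and 5 fell in KOd (16.5% and 17.5%), with medians of -1.02 and -0.69 (0.02 and 0 over all genes). PLAU, SERPINE2, F3 and F10 were lower than wt in 3D in both pools as labelled, and TFPI2 was higher in both. F10 passed the filter only through wt, and the F3 call in KOd ended without wt A, wt B or KOd C. The share of all genes lower or higher in both pools was not counted, so this overlap cannot be read against it. The comparisons within a format share their wt libraries. SERPINB2 in KOd 3D against wt 3D, 15 reads against 2, did not pass (adjusted p = 0.066) but did without wt 3D B (0.031) and with library totals (0.047). Scaling by library totals alone shifted the median of all genes in KOd 3D against wt 3D by 0.16, where 4199 genes rose and 1793 fell against 2689 and 2859 with TMM. For labelled KOs 3D against wt 3D it was 6039 and 3538 against 4535 and 4655.

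The pools were also compared with each other. In 2D, KOd was higher than labelled KOs in 1 gene and lower in 5 (28.8% and 30.7% of all genes). TFPI was the 1 that was higher (1.01 ± 0.18, adjusted p = 1.2e-04). PLAUR (-2.13 ± 0.11, adjusted p = 1.1e-10), SERPINE2 (-2.51 ± 0.15, adjusted p = 3.6e-10), PLAT (-1.45 ± 0.16, adjusted p = 6.0e-07), F3 (-1.64 ± 0.25, adjusted p = 2.4e-05) and TFPI2 (-1.69 ± 0.41, adjusted p = 0.0016) were lower, although the libraries of TFPI2 overlapped and its value was -1.01 without labelled KOs 2D B (adjusted p = 0.019). In 3D, 4 were higher and 3 lower (23.9% and 23.3%). PLAT was higher by 2.37 ± 0.17 (adjusted p = 6.5e-09) and TFPI2 lower by 4.03 log2 units (log2 -4.03 ± 0.37, adjusted p = 1.6e-07). PLAU was higher (0.44 ± 0.11, adjusted p = 0.0021) and PLAUR lower (-0.80 ± 0.11, adjusted p = 1.2e-05), as was SERPINB2, which passed the filter only through labelled KOs 3D. F3 was higher (0.63 ± 0.25, adjusted p = 0.047), a call that ended without any 1 of the 6 libraries (adjusted p up to 0.13), with the replicate block (adjusted p = 0.06) and with library totals (adjusted p = 0.052). SERPINE2 stood at -0.34 with a 95% interval of -0.64 to -0.04 and did not pass (adjusted p = 0.05 after rounding), but did with DESeq2 (adjusted p = 0.039), with no filter (0.038) and in the compared groups alone (0.0031). PLAT and F3 lay below labelled KOs in KOd 2D and above it in KOd 3D.

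Other genes of the pathways were read from lists of names. Plasminogen itself (PLG) had at most 4 reads in a group of 3 libraries, F2 (prothrombin) at most 4 and F5 at most 6, so none of these was counted beyond a few reads. Of 16 other plasminogen genes 14 were tested, of 29 other coagulation genes 15, and of 4 protease-activated receptors 4. In wt 3D against 2D, where 33.3% of all tested genes rose and 30.4% fell, 5 of the plasminogen genes rose and 6 fell, 5 of the coagulation genes rose and 4 fell, and 4 receptors rose. PLGRKT, a plasminogen receptor, fell in 3D in wt (-1.05 ± 0.09, adjusted p = 2.4e-08), labelled KOs (-0.93 ± 0.09, adjusted p = 8.7e-08) and KOd (-1.20 ± 0.09, adjusted p = 3.2e-09). The thrombin receptor gene F2R rose in wt (1.63 ± 0.22, adjusted p = 6.0e-06) and in KOd (1.85 ± 0.22, adjusted p = 1.2e-06). F2RL2, another thrombin receptor, rose by 4.31 ± 0.33 (adjusted p = 5.0e-09) and 5.19 ± 0.35 (adjusted p = 7.6e-10). THBD, thrombomodulin, rose as well in wt (1.30 ± 0.10, adjusted p = 6.5e-09).

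In labelled KOs, where 32.9% of all genes rose and 32.1% fell, 4 plasminogen genes rose and 7 fell in 3D against 2D, 2 coagulation genes rose and 9 fell, and 1 receptor rose and 1 fell. In KOd (35.2% and 31.2% of all genes), 6 plasminogen genes rose and 6 fell, 4 coagulation genes rose and 4 fell, and 2 receptors rose. The KOd response differed from that of wt for 3 of the 14 plasminogen and 2 of the 15 coagulation genes. It was lower for 2 of the 4 receptors and higher for 0, where 14.4% of all genes were higher and 14.7% lower. The labelled KOs response was lower than that of wt for 4 plasminogen genes, 7 coagulation genes and 3 of the 4 receptors, and higher for 0. Of all genes, 17.9% were higher and 19% lower in that comparison. Those receptors were F2RL2 (-3.94 ± 0.42, adjusted p = 2.6e-06), F2RL1 (-1.66 ± 0.23, adjusted p = 3.8e-05) and F2R (-1.64 ± 0.31, adjusted p = 5.7e-04). THBD was lower than wt in 3D in labelled KOs (-0.90 ± 0.10, adjusted p = 5.5e-07) and in KOd (-0.95 ± 0.10, adjusted p = 8.4e-07). F2RL3, a thrombin receptor of platelets, was higher than wt in 2D in labelled KOs (3.33 ± 0.45, adjusted p = 8.7e-06) and KOd (4.51 ± 0.45, adjusted p = 3.8e-07), while the platelet markers summed to at most 0.517 CPM in any library. The medium in wt 2D moved 1 plasminogen gene up and 3 down (15.6% and 16.4% of all genes), among them S100A10 (-1.13 ± 0.13, adjusted p = 3.3e-06) and ANXA2 (-0.87 ± 0.10, adjusted p = 3.8e-06), subunits of a plasminogen-binding complex.

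**Figure D5:**
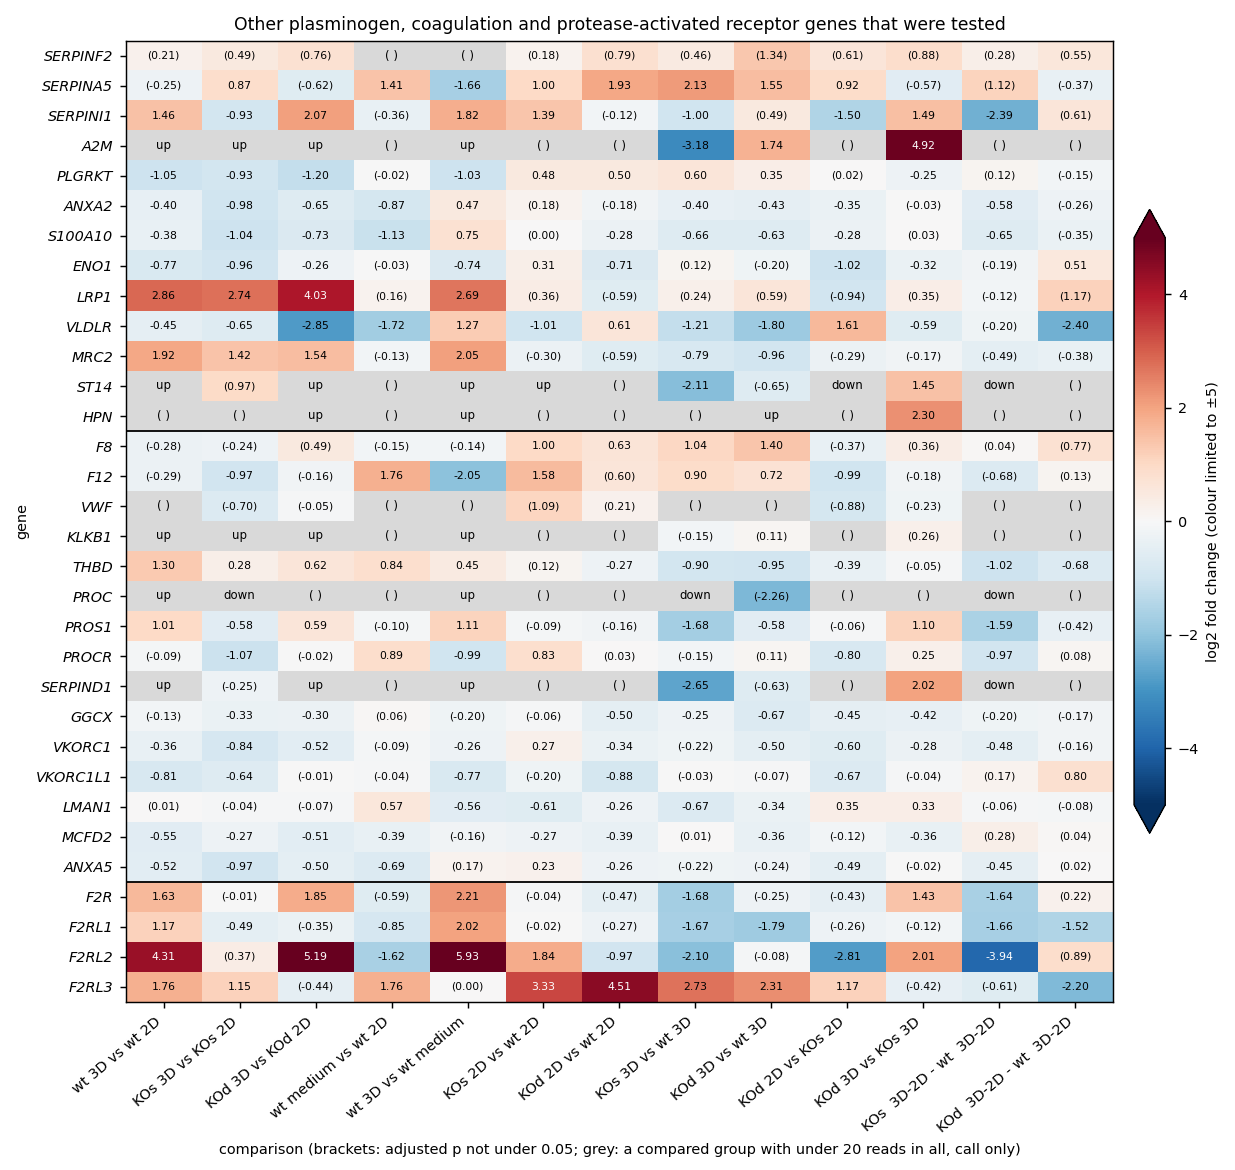
Log2 fold changes of the tested plasminogen genes but 1 (top block), coagulation genes (middle) and protease-activated receptors (bottom) in the 13 comparisons, with brackets and grey cells as for the 9 genes. PLGRKT was negative in each 3D against 2D comparison (-1.05, -0.93 and -1.20). Of the 4 receptors, 3 had a lower response than in wt in labelled KOs and 2 in KOd.

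The genes whose levels were most like those of each of the 9 were ranked by Pearson r over the 7 group means of log2 CPM, among 11262 or 11263 candidates, as a description without a test. SULF2 and SNED1 were most like PLAU (r = 0.997 each), and MAN2B1 (0.99) and TFAP2C (0.988) most like SERPINE2. VMP1 (0.948) stood nearest to PLAT and KAT2A (0.974) to SERPINB2. HMBOX1 (0.993) stood nearest to TFPI, PPT2 (0.98) to TFPI2, FKBP1A (0.974) to F3 and FAR2 (0.991) to F10. The 7 means share libraries, medium and pools, and no gene was compared with chance.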

How the data were processed

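Stranded TruSeq mRNA libraries of SUM159PT cells were measured in 20 samples, and the authors deposited whole-number read counts per Entrez gene for each. STAR and hg38 are named in the submitters' processing notes, while the counting tool, its strand setting and the annotation are not given in the sources used here. A deposited length column, in bases per the file headers, was used for CPM per kilobase. Of 27864 identifiers, 27740 matched a RefSeq symbol (GRCh38.p14), from which positions were taken.

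filterByExpr in edgeR 4.0.16 (R 4.3.3) kept 16323 genes, among them all 9 described. A quasi-likelihood model with 1 coefficient per group, TMM scaling and 13 residual degrees of freedom was fitted to all libraries, with a biological coefficient of variation of 14.3%. Calls are adjusted p (Benjamini-Hochberg over all genes) under 0.05. The 95% intervals use the residual degrees of freedom, and counting intervals are exact. The steps were tested on simulated data with 200 changed genes in wt 3D against wt 2D. Those genes were well counted, so that test covered neither low counts nor comparisons in which a large share of genes changed. DESeq2 1.42.0 was an alternative. The genes and lists were chosen with earlier results of these data known. Named beyond the 9 were NNMT, up to 3 members of each pathway list per comparison with the smallest adjusted p, and the genes most like each of the 9 (mean log2 CPM of at least 2). The genes of chromosome 13, PLG, F2, F5, F7 and the marker genes given as levels were named outside that rule, after their values were seen. A few genes that the rules would name are not reported here.

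The labels do not say that equal replicate letters share a culture or day. For 2 of 21 pairs of groups, libraries of the same letter deviated together (correlation over 0.1 for each of the 3 letters), wt and KOd in 2D (r = 0.291, 0.241 and 0.199) and in 3D (0.349, 0.407 and 0.455), so a block within each of these was added. Pairs with tumorsphere medium, which had only A and B, could not meet this rule but are among the 21.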

Additional observations from a re-analysis of the deposited data

Results flagged for a closer look

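The response of 8 of the 9 genes to tumorsphere culture differed between wt and the libraries labelled KOs by the interaction test (edgeR, adjusted p under 0.05). On the log2 scale the labelled KOs response minus the wt response was -1.35 for PLAU, -0.77 for PLAUR, -2.97 for PLAT, -2.47 for SERPINE2 and -1.93 for F3. It was 6.24 for SERPINB2, 0.86 for TFPI and 4.52 for TFPI2. Between wt and KOd the responses of 5 genes differed, by -1.03 for PLAU, 0.57 for PLAUR, 0.84 for PLAT, 5.02 for SERPINB2 and 2.18 for TFPI2. The SERPINB2 values are fitted and no bounds, since each rests on groups of 1 to 15 reads, beside 202 in labelled KOs 3D. The gene passed the filter only through that group, so its KOs call is no independent support. The KOs value did not pass without wt 2D C (adjusted p = 0.2). The KOd value did not pass with no filter (adjusted p = 0.051), with the replicate block (0.057) or without any of 8 of the 12 libraries (up to 0.38). Groups held 2 or 3 libraries, too few for a test of outlying samples.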

How the results depend on the processing

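The 9 genes were recomputed in each comparison under the alternatives, which gave 1635 values with the call and direction of the main analysis, 74 that no longer passed, 22 that newly passed and 15 of opposite sign. RLE scaling changed no call, and leaving out the 3 libraries that stood apart ended none. That setting kept wt 2D C, whose removal ended calls such as that of PLAT in KOd 2D against wt 2D (adjusted p = 0.1). With an adjusted p under 0.01 the number of the 9 that passed went from 5 to 3 for tumorsphere medium against wt 2D, from 7 to 4 for KOd 2D against wt 2D and from 5 to 2 for the KOd interaction. Leaving out 1 library gave 3 to 6 for the medium (3 without wt 2D A, wt 2D B or medium B) and 4 to 6 for KOd 2D (4 without wt 2D C or KOd 2D C).

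None of the values that changed sign had passed. F3 in wt 3D against 2D was 0.06 without the 3 libraries. In labelled KOs 2D against wt 2D, PLAU was -0.02 and SERPINB2 0.33 without them. TFPI2 in KOd 2D against wt 2D was 0.11 with library totals, 0.01 with no filter and 0.01 in the compared groups alone. Leaving out 1 library gave -0.31 to 0.07 for F3 and -4.35 to 0.23 for SERPINB2 in wt 3D against 2D, and -0.45 to 2.03 for F10 in KOd 3D against 2D. It gave -0.01 to 0.25 for PLAU and -1.44 to 1.56 for SERPINB2 in labelled KOs 2D against wt 2D, and -0.42 to 0.22 for TFPI2 in KOd 2D against wt 2D. The SERPINB2 and F10 values here are fitted and no bounds. The cause of these changes was not tested.

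With a replicate block over every library 2 calls changed, F3 in KOd 3D against labelled KOs 3D (adjusted p = 0.06) and SERPINB2 in the KOd interaction (adjusted p = 0.057), and no other call of the 9 genes. Blocks within wt and KOd in 2D and in 3D, added after the data were seen, left 7 genes passing in each. Library totals alone moved the median of all genes by up to 0.22 (in the labelled KOs interaction, and in labelled KOs 3D against 2D, where 6762 rose and 3565 fell against 5367 and 5247 with TMM). In KOd 2D against wt 2D the split was 4490 and 2842 against 3611 and 3669, and in KOd 2D against labelled KOs 2D 5711 and 3844 against 4704 and 5017. In the labelled KOs interaction it was 4333 and 1899 against 2917 and 3095. DESeq2 passed F10 in both interactions (adjusted p = 0.0082 and 0.033), where pool libraries held 0 to 10 reads. F10 and SERPINB2 are limited by counts, and tumorsphere medium by 2 libraries.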
